A study of Homo sapiens with 12 samples.

Results

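The cornified envelope genes followed here are 10 genes, IVL, SPRR1A, SPRR1B, SPRR2A, SPRR2D, SPRR3, TGM1, CNFN, PPL and EVPL, out of 61044 gene identifiers in the deposited count table. They were chosen by name, as proteins of the envelope and the enzyme that joins them, and each symbol matched 1 identifier. The cells were SCC-15, an established cancer line from an oral squamous cell tumour, grown in DMEM with serum. The control group (NC) carried a negative-control short hairpin RNA, and the other groups, shRNA1, shRNA2 and shRNA3, each carried a different short hairpin RNA against FMOD, the gene of the matrix proteoglycan fibromodulin. All groups were harvested after 48 hours, and each had 3 libraries (n = 3), 12 in all, with 17286934 to 19567192 counts per library. The labels do not say that the libraries of a group came from separate cultures, so p-values measure the spread between these libraries, which may be technical.

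The cornified envelope is the protein shell that replaces the plasma membrane of a squamous epithelial cell at the end of its differentiation. Assembly is known to begin at the inner face of the membrane with the plakins envoplakin (EVPL) and periplakin (PPL) and with involucrin (IVL), which transglutaminases such as TGM1 crosslink. Small proline-rich proteins (the SPRR family) and, in the epidermis, loricrin then reinforce the shell, and cornifelin (CNFN) is a further component. In oral epithelium, SPRR3 and involucrin are classic products of the upper, differentiated layers. PPL and EVPL have a wider use, since plakins also link keratin filaments to desmosomes in cells that never cornify.

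Across the 12 libraries the envelope genes were read as the plakins, and hardly at all as involucrin or the proline-rich proteins. PPL and EVPL together held 95.4% to 98.8% of the counts of the 10 genes in each library. The 5 SPRR genes together had between 1 and 21 counts per library, and IVL had 0 to 18. PPL was lower than in NC in all 9 shRNA libraries, by 2.77-fold for shRNA1. EVPL was higher by 1.55-fold for shRNA3, a call that was lost when libraries were scaled by their totals alone (adjusted p = 0.125, edgeR). TGM1 and CNFN did not pass the test against NC for any shRNA. Only TGM1, CNFN, PPL and EVPL, 4 of the 10, had enough counts to pass the filter (edgeR's filterByExpr, minimum count 10), so the other 6 entered no test across all genes.

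**Figure D1:**
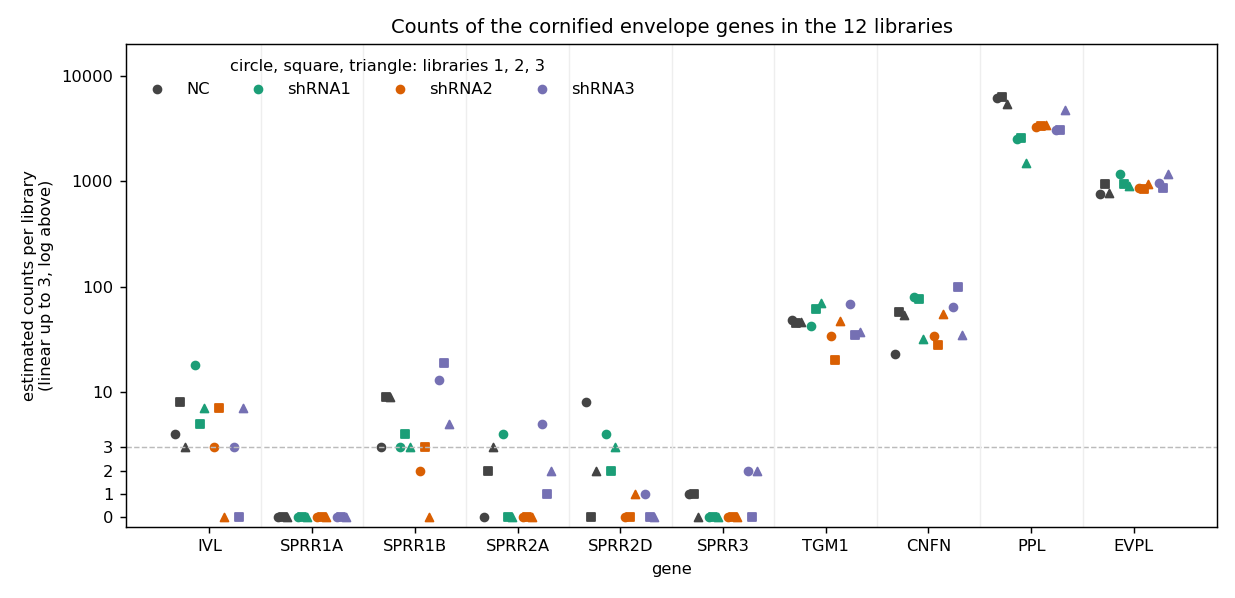
Estimated counts of the 10 genes (x axis) in each of the 12 libraries (y axis, linear up to 3 counts and logarithmic above), with the groups in colour, libraries 1, 2 and 3 as circles, squares and triangles, and a dashed line at 3 counts. SPRR1A lies at 0 throughout, TGM1 and CNFN lie between 20 and 100 counts, and PPL lies between 1497 and 6348.

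The libraries differ in ways that bear on every comparison below. NC libraries correlated with shRNA libraries at 0.829 to 0.855 (Pearson's r of log2(CPM + 1)), and with each other at 0.993 to 0.994. Within shRNA3 the correlations ran from 0.916 to 0.995, because libraries 1 and 2 stood apart from library 3, and their TMM scaling factors were 0.771 and 0.795 against 0.979 to 1.11 in the other 10. FMOD had 2, 2 and 3 counts in NC and 0 in the 9 shRNA libraries, all at or under the limit of 3 counts. Of the 12 squamous markers checked, 12 had over 3 counts in every NC library and 11 in every library of each shRNA group. Their levels did not stay together: for all 3 shRNAs against NC 3 of the 12 were higher and 5 lower (edgeR, beside 16.0% and 19.7% of all tested genes). The 3 higher were the keratins KRT14, KRT6A and KRT17. The 5 lower were KRT5, the adhesion genes CDH1 (E-cadherin, a mean of 323 CPM in NC and 38.2, 53.4 and 66.1 for shRNA1, shRNA2 and shRNA3), DSC3 and PKP1 (343 to 377 counts in NC and at most 67 in an shRNA library), and LAD1 (36.5 CPM, then 0.166, 0.25 and 0.215). The 5 markers of simple epithelium summed to 1600 to 1700 CPM (counts scaled by TMM to a common library size) in NC and to 4770 to 7650 in the shRNA libraries. Of these 5, KRT7, KRT8, KRT18 and KRT19 were higher for all 3 shRNAs (4 of 5, beside 16.0% of all tested genes). EPCAM stood at 188 CPM in NC and 156, 271 and 356, and was not called for shRNA1. The 8 mesenchymal markers summed to 59.9 to 63.2 CPM in NC and to 374 to 899 in the shRNA libraries. Most of the latter was vimentin (VIM), with a mean of 3.26 CPM in NC and 445, 609 and 694 for shRNA1, shRNA2 and shRNA3. The mesenchymal list did not move as one: 5 of the 8 passed the filter, and for all 3 shRNAs VIM was higher while COL1A2, LUM and PDGFRB were lower. COL1A2 stood at 4.81 CPM in NC and at most 0.0688 in an shRNA group mean, PDGFRB at 10.7 and 0.765, 1.1 and 0.728, and LUM at 1.15 and at most 0.0373. DCN and COL3A1 reached at most 0.157 and 0.0678 CPM in any group mean. The labels give SCC-15 for all 4 groups. NC nevertheless differed from each shRNA group in 53.0% to 57.4% of the tested genes, and whether the NC and the shRNA libraries came from the same starting cells was not tested. A depletion of FMOD could not be checked at these counts. Anything else that sets NC apart cannot be told apart from the shRNAs against FMOD, and every fold change against NC below carries this limit.

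IVL and the SPRR genes had few counts in every group, so upstream sequences are shown before their values. IVL and the 5 SPRR genes lie within 149 kb of chromosome 1 (152908545 to 153057537, GRCh38), inside the epidermal differentiation complex. Upstream sequence, credited to RefSeq (GRCh38.p14), was available for 6 of the 10 genes: IVL, SPRR1A, SPRR1B, SPRR2A, SPRR3 and CNFN. The 250 bases before the start were searched on both strands for TGANTCA, the core sequence that AP-1 factors (dimers of Fos and Jun proteins) recognise. It was found in 5 of these 6, against 6.57% of 35116 promoters of the same length. IVL has a match 123 bases before its start, SPRR1A 108, SPRR1B 141 and 111, SPRR2A 197 and SPRR3 170, while CNFN has none. Printed below are the 250 bases before the start of IVL, SPRR1B and CNFN, 5′ to 3′ on the strand of the gene, with the TGANTCA matches in capitals. IVL and SPRR1B are the 2 with the most counts among IVL and the SPRR genes. The windows are chr1:152908296-152908545 on the plus strand for IVL, chr1:153030953-153031202 on the plus strand for SPRR1B and chr19:42390298-42390547 on the minus strand for CNFN.
IVL: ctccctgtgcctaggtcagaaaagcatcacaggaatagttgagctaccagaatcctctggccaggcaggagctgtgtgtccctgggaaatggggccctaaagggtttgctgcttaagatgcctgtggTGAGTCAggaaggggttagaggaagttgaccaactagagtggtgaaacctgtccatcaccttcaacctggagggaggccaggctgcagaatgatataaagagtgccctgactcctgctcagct
SPRR1B: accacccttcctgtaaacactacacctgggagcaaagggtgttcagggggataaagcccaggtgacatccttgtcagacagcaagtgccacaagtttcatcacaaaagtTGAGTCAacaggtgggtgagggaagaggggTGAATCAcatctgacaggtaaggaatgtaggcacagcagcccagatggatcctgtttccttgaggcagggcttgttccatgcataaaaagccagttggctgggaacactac
CNFN: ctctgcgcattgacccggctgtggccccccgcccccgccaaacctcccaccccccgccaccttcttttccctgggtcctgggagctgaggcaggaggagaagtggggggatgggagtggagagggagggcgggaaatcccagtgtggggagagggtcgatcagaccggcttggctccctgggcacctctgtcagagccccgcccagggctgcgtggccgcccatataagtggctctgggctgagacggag

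SPRR1B is the only gene of the 6 with a pair of matches. The sequence TATAAA, the TATA box of many promoters, searched on both strands, was present in IVL, SPRR1A, SPRR2A and SPRR3, 4 of the 6 (10.7% of all promoters), and overlapped no TGANTCA match. AACNGGTT, the sequence that Grainyhead-like factors recognise, was in 0 of the 6 (0.789% of all promoters). These are matches of letters, and binding was not measured.

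Involucrin (IVL, ENSG00000163207), a glutamine-rich rod that is crosslinked early and serves as a base for the other envelope proteins, was read at a few counts per library. NC libraries 1 to 3 had 4, 8 and 3 counts. For shRNA1 the counts were 18, 5 and 7, for shRNA2 they were 3, 7 and 0, and for shRNA3 they were 3, 0 and 7. The library with 18 counts stood highest, at 0.925 CPM of its total (exact Clopper-Pearson 95% interval 0.548 to 1.46, which covers counting error only, because copies of a molecule cannot be told from separate molecules here). All 4 groups overlapped, and 5 of the 12 libraries were at or under 3 counts. No difference in IVL was detectable at this depth.

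The SPRR proteins are short, proline-rich crossbridges that become crosslinked to each other and to other envelope proteins. SPRR1A had 0 counts in all 12 libraries, which allows up to 0.145 to 0.222 CPM depending on the library. The gene model of GENCODE release 29 for SPRR1A spans 270 bases, and the RefSeq start lies 1150 bases from the start in that model, so a part of its transcript may lie outside the model. SPRR1B, its closest relative here, had 3, 9 and 9 counts in NC and 3, 4 and 3 for shRNA1. It had 2, 3 and 0 counts for shRNA2, and 13, 19 and 5 for shRNA3. The 2 highest SPRR1B values, 0.964 and 1.38 CPM, were those of shRNA3 libraries 1 and 2, the libraries that stand apart, and library 3, at 0.248 CPM, lay within the range of NC.

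SPRR2A had 0, 2 and 3 counts in NC, 4, 0 and 0 for shRNA1, 0 in all of shRNA2 and 5, 1 and 2 for shRNA3. SPRR2D had 8, 0 and 2 counts in NC, 4, 2 and 3 for shRNA1, 0, 0 and 1 for shRNA2 and 1, 0 and 0 for shRNA3. SPRR3, the member most typical of oral epithelium, had 1, 1 and 0 counts in NC, 0 for shRNA1 and shRNA2, and 2, 0 and 2 for shRNA3. SPRR3 was thus at or under 3 counts in 12 of 12 libraries, and SPRR2A and SPRR2D in 10 of 12 each, so their levels cannot be ordered. Reads of this family can be uncertain: 32.7% of the windows of 50 bases in the SPRR2A transcript and 26.8% in SPRR2D also occur in other SPRR2 genes, against 11.3% in SPRR1A and 4.38% in SPRR1B.

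The low-count genes were also put through a fit without the filter, which held 5 of the 6 (SPRR1A had no count). In 35 tests, 5 genes by 7 contrasts, edgeR's quasi-likelihood test gave adjusted p-values from 0.0641 to 1, with 0 under 0.05 after adjustment and 3 under 0.05 before it. The lowest belonged to SPRR1B in shRNA2 against shRNA3. SPRR1B passed the filter when shRNA3 library 3 was left out, and it was then higher for shRNA3 than for NC (log2 fold change 1.72, adjusted p = 0.0239, edgeR), shRNA1 and shRNA2, and lower for shRNA2 than for NC. Without shRNA2 library 3 it also differed between shRNA1 and shRNA3 (-2.34, adjusted p = 0.0398, edgeR). Those fits assume that a group of 2 libraries varies like the others, and SPRR1B was called in no other setting. SPRR1B reached the minimum count of 10 only in shRNA3 libraries 1 and 2 (13 and 19 counts). It thus entered those fits through the group where it is high, so their p-values are no support for a difference.

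The neighbours of these genes were read as little. Of the 8 protein-coding genes from IVL to SPRR2A, the members included, 0 passed the filter and 2 had no count in any library. From S100A10 to SPRR2A, a span of 1070 kb chosen after the values were seen, 40 protein-coding genes are annotated, of which 25 never exceeded 3 counts, 15 of them with no count at all. The filter was passed by 4: S100A10, S100A11, FLG (filaggrin) and HRNR (hornerin). Only S100A10 and S100A11, calcium-binding proteins that many cells make, exceeded 100 counts in any library.

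**Figure D2:**
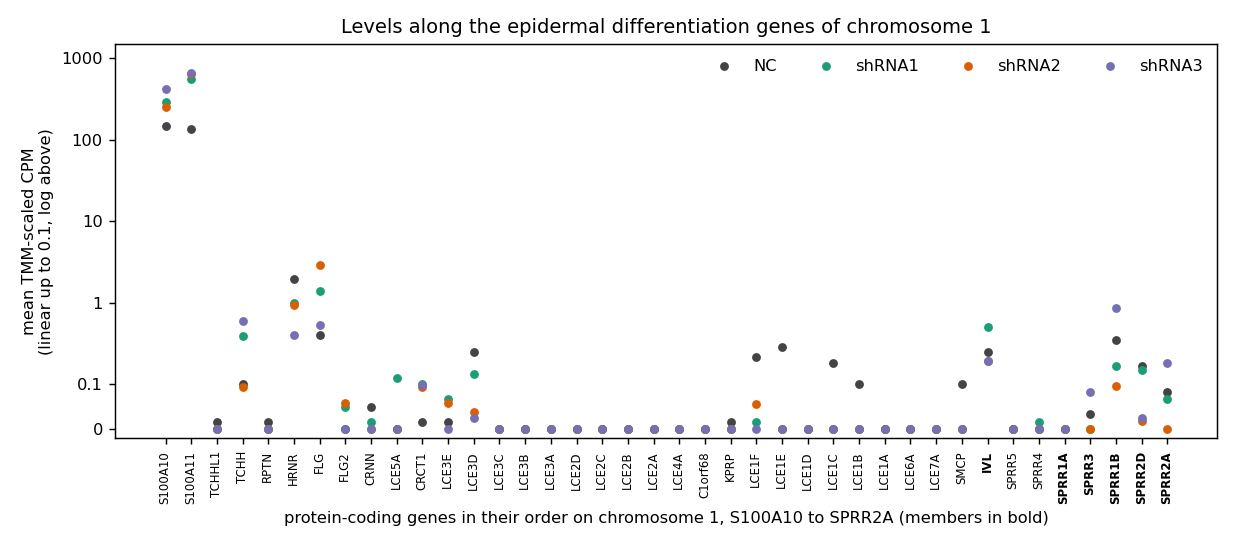
Mean TMM-scaled CPM of each group (y axis, linear up to 0.1 and logarithmic above) for the 40 protein-coding genes from S100A10 to SPRR2A in their order along chromosome 1 (x axis, members in bold). S100A10 and S100A11 lie above 100 CPM in every group, and the members stay under 1 CPM.

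Transglutaminase 1 (TGM1, ENSG00000092295), the membrane-anchored enzyme that crosslinks the envelope, is on chromosome 14 (24249114 to 24264432, minus strand). Its counts were 48, 45 and 46 in NC, 42, 61 and 70 for shRNA1, 34, 20 and 47 for shRNA2 and 69, 35 and 37 for shRNA3. In CPM, TGM1 stood at 2.32 ± 0.104 (SD, n = 3) in NC, 2.89 ± 0.764 for shRNA1, 1.91 ± 0.742 for shRNA2 and 3.17 ± 1.72 for shRNA3. Values of NC were the closest together, and each shRNA group had libraries on both sides of them. No change was called by edgeR's quasi-likelihood test: the log2 fold changes against NC were 0.31 (SE 0.42, adjusted p = 0.547), -0.28 (SE 0.42, adjusted p = 0.598) and 0.44 (SE 0.42, adjusted p = 0.401). The 95% interval for shRNA3 ran from -0.53 to 1.4, so changes of these sizes were not detectable with intervals this wide. Without shRNA3 libraries 1 and 2 the shRNA3 value was -0.31.

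Cornifelin (CNFN, ENSG00000105427), a small cysteine-rich component of the envelope, is on chromosome 19 (42387019 to 42390287, minus strand). NC had 23, 57 and 54 counts, shRNA1 79, 76 and 32, shRNA2 34, 28 and 55, and shRNA3 64, 100 and 35. The mean CPM of CNFN was 2.24 ± 0.931 (SD, n = 3) in NC, 3.09 ± 1.25 for shRNA1, 2.21 ± 0.757 for shRNA2 and 4.59 ± 2.78 for shRNA3. Its highest libraries were shRNA3 libraries 1 and 2, at 4.75 and 7.29 CPM, while library 3, at 1.74 CPM, lay within the range of NC, so the groups overlapped. The log2 fold change for shRNA3 was 1.03 (SE 0.54, adjusted p = 0.132, edgeR), with a 95% interval from -0.229 to 2.28. It became 1.42 (adjusted p = 0.00745) without library 3 and -0.33 without libraries 1 and 2, so the libraries decide its sign. For shRNA1 and shRNA2 the CNFN values were 0.47 (adjusted p = 0.486) and -0.02 (adjusted p = 0.979).

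Periplakin (PPL, ENSG00000118898) anchors keratin filaments at the membrane and pairs with envoplakin in the first envelope scaffold, and it lies on chromosome 16 (4882507 to 4960741, minus strand). Its TMM-scaled levels were 312, 313 and 276 CPM in NC, 124, 124 and 77.3 for shRNA1, 192, 187 and 190 for shRNA2, and 228, 223 and 234 for shRNA3. All 9 shRNA libraries lay below all 3 NC libraries, and on this scale the 3 shRNA groups did not overlap each other, with shRNA1 lowest and shRNA3 highest. As CPM of the library total, shRNA2 (187, 192 and 192) and shRNA3 (176, 177 and 248) overlapped in PPL, and their log2 difference was -0.07 (adjusted p = 0.812, edgeR). The means were 300.0 ± 21.0 CPM (SD, n = 3) in NC, 108 ± 26.8 for shRNA1, 190 ± 2.14 for shRNA2 and 228 ± 5.25 for shRNA3. PPL fell for shRNA1 (log2 fold change -1.47, SE 0.17, adjusted p = 2.79e-05, edgeR's quasi-likelihood test) and for shRNA2 (-0.66, SE 0.17, adjusted p = 0.00583, or 1.58-fold lower). For shRNA3 the log2 fold change was -0.39 (SE 0.17, adjusted p = 0.0646), which did not pass, although all 3 libraries lay below NC. The mean of the 3 shRNAs was lower by 1.79-fold (log2 fold change -0.84, SE 0.13, adjusted p = 0.000163). In bulk RNA, fewer cells with PPL and less PPL RNA per cell cannot be told apart.

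The shRNA3 value of PPL depended on the scaling, the tool and single libraries. With library totals in place of TMM, an alternative added after the data were seen, it was -0.72 (adjusted p = 0.00835, edgeR), while the median log2 fold change of all genes for shRNA3 moved from -0.03 to -0.35. DESeq2's Wald test gave -0.40 (adjusted p = 0.0463), edgeR without shRNA3 library 3 gave -0.42 (adjusted p = 0.0282), and edgeR without shRNA1 library 3 gave -0.39 (adjusted p = 0.00715). Without shRNA3 libraries 1 and 2, which leaves 1 shRNA3 library, it was -0.33. SEC14L5 overlaps PPL on the opposite strand and had at most 36 counts in a library. The deposited PPL values were not whole numbers in 100% of the libraries, unlike those of the other 9 genes.

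The shRNAs also differed from each other in PPL. Between shRNA1 and shRNA2 the log2 difference was -0.81 (SE 0.17, adjusted p = 0.0126, edgeR), and between shRNA1 and shRNA3 it was -1.08 (SE 0.17, adjusted p = 0.0035), with 3 of 3 shRNA1 libraries below all libraries of the other group each time. Between shRNA2 and shRNA3 it was -0.27 (adjusted p = 0.275, 95% interval -0.652 to 0.117), so these neighbours did not pass the test. The first difference missed the threshold without shRNA2 library 1 (-0.80, adjusted p = 0.0544) or library 3 (-0.82, adjusted p = 0.0518). The second missed it when the fit held only shRNA1 and shRNA3 (-1.08, adjusted p = 0.117), a fit that called 0 of 15326 genes. With each library left out in turn, the first ran from -0.93 to -0.62 and the second from -1.18 to -0.88. Library 3 of shRNA1 had the lowest PPL, and without it the shRNA1 value against NC was -1.27 in place of -1.47.

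Envoplakin (EVPL, ENSG00000167880), the partner of periplakin, lies on chromosome 17 (76004502 to 76027452, minus strand) and moved the other way. Its levels were 38, 45.9 and 39.4 CPM in NC, 57.8, 45.8 and 46.4 for shRNA1, 50.3, 47.9 and 52.0 for shRNA2, and 70.8, 63.2 and 57.7 for shRNA3. Of the 9 shRNA libraries 8 lay above all NC libraries on this TMM scale, and shRNA1 library 2 lay just under NC library 2. As CPM of the library total, NC (41.6, 50.9 and 43.5) overlapped each shRNA group in EVPL. There shRNA1 stood at 59.7, 48.3 and 47.7, shRNA2 at 49.2, 48.9 and 52.7, and shRNA3 at 54.6, 50.2 and 61.3. The means were 41.1 ± 4.21 CPM (SD, n = 3) in NC, 50.0 ± 6.77 for shRNA1, 50.1 ± 2.09 for shRNA2 and 63.9 ± 6.59 for shRNA3. EVPL rose for shRNA3 (log2 fold change 0.64, SE 0.14, adjusted p = 0.0029, edgeR, 1.55-fold higher) and for the mean of the 3 shRNAs (0.40, SE 0.12, adjusted p = 0.0122, 1.32-fold higher). For shRNA1 and shRNA2 the log2 fold change was 0.28 each (adjusted p = 0.11 and 0.114). Between shRNAs, edgeR's test over all 12 libraries called no difference in EVPL: -0.35 for shRNA1 against shRNA3 (adjusted p = 0.0784), -0.35 for shRNA2 against shRNA3 (adjusted p = 0.12) and -0.00 for shRNA1 against shRNA2 (adjusted p = 1). DESeq2's Wald test called the first (-0.38, adjusted p = 0.0336) and the second (-0.39, adjusted p = 0.0455). So did edgeR without shRNA3 library 3, at -0.41 for each (adjusted p = 0.00984 and 0.0116).

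Both EVPL calls rest on the scaling. With library totals the shRNA3 value was 0.29 (adjusted p = 0.125, edgeR) and the mean of the 3 shRNAs 0.21 (adjusted p = 0.162). Without NC library 1 or NC library 3 the mean was 0.35 (adjusted p = 0.0682) and 0.37 (adjusted p = 0.0612). Without shRNA3 libraries 1 and 2, which leaves 1 shRNA3 library, the shRNA3 value was 0.52. CDK3 and TEN1-CDK3 overlap EVPL on the opposite strand and had at most 37 and 70 counts in a library.

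**Figure D3:**
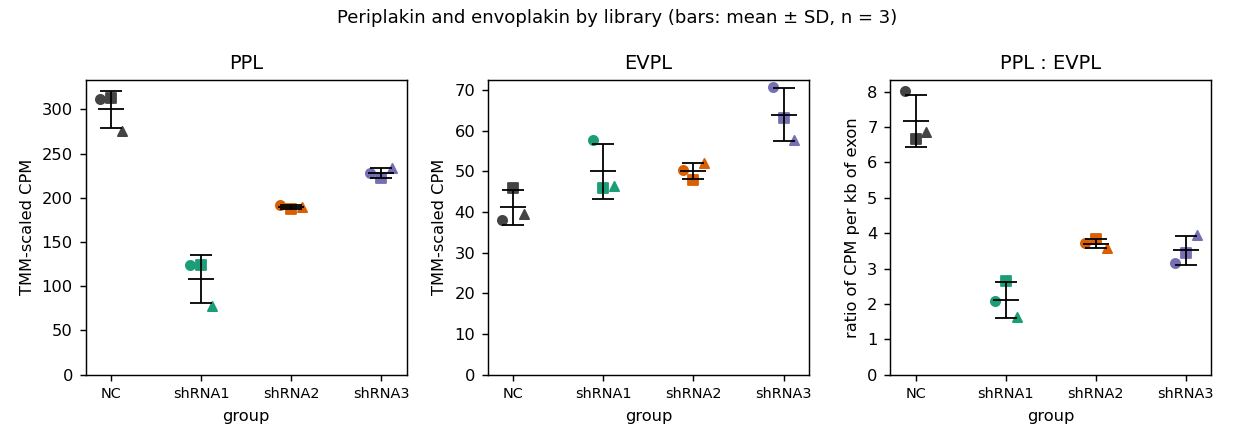
TMM-scaled CPM of PPL (left) and EVPL (middle) and the ratio of their CPM per kb of exon (right) in the 4 groups (x axis), with libraries 1, 2 and 3 as circles, squares and triangles and bars for the mean ± SD (n = 3). PPL lies below NC in all 9 shRNA libraries, and the ratio falls from 6.66 to 8.02 in NC to 1.63 to 3.96.

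Because both plakins were read deeply, their balance could be followed library by library without any scaling between libraries. Per kb of exon, PPL exceeded EVPL by 7.18 ± 0.737 times (SD, n = 3) in NC, 2.12 ± 0.506 times for shRNA1, 3.71 ± 0.131 times for shRNA2 and 3.52 ± 0.41 times for shRNA3. The NC libraries ran from 6.66 to 8.02 and the 9 shRNA libraries from 1.63 to 3.96, with no overlap. The groups shRNA2 and shRNA3 overlapped, and shRNA1 lay below both. This ratio was chosen after the values of both genes were known, so it carries no test.

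On the scale of CPM per kb of exon, which allows levels of different genes to be set side by side, the order in NC was PPL (39.1), EVPL (5.47), CNFN (3.71), TGM1 (0.622), SPRR1B (0.565), SPRR2D (0.159), SPRR2A (0.118), IVL (0.116), SPRR3 (0.0231) and SPRR1A (0). The median of tested genes with an exon length was 3.53 in NC, and 94.1% of them lay below PPL but 20.5% below TGM1. From SPRR1B downwards the counts are too few to separate neighbours. For shRNA1 PPL stood at 14.1 and EVPL at 6.66, for shRNA2 at 24.7 and 6.67, and for shRNA3 at 29.7 and 8.51, so PPL led in every group. CNFN stood above TGM1 in every group, at 5.12 against 0.773 for shRNA1, 3.66 against 0.511 for shRNA2 and 7.61 against 0.848 for shRNA3.

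Counted over the comparisons, PPL and EVPL were the only members called, out of 4 tested. For shRNA1 against NC, 1 of the 4 was called (PPL, lower), where 57.4% of the 17532 tested genes were called and 30.6% were lower. For shRNA2 it was 1 of 4 (PPL, lower) beside 53.0% of all genes called and 28.4% lower, and for shRNA3 1 of 4 (EVPL, higher) beside 53.9% called and 26.4% higher. For the mean of the 3 shRNAs it was 2 of 4, PPL lower and EVPL higher, beside 60.0% called, 32.2% lower and 27.9% higher. Between shRNAs, PPL was the only member called for shRNA1 against shRNA2 (background 12.3%) and for shRNA1 against shRNA3 (30.0%). For shRNA2 against shRNA3 edgeR called 0 members (1 at an unadjusted p under 0.05), beside 8.34% of all genes. DESeq2's Wald test called 1, EVPL, beside 21.6% of all genes (3793 of 17532). The median log2 fold change of the 4 was 0.30, -0.15 and 0.54 for shRNA1, shRNA2 and shRNA3, beside -0.0169, -0.0493 and -0.0266 over all tested genes. The comparisons with NC share the same 3 control libraries.

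**Figure D4:**
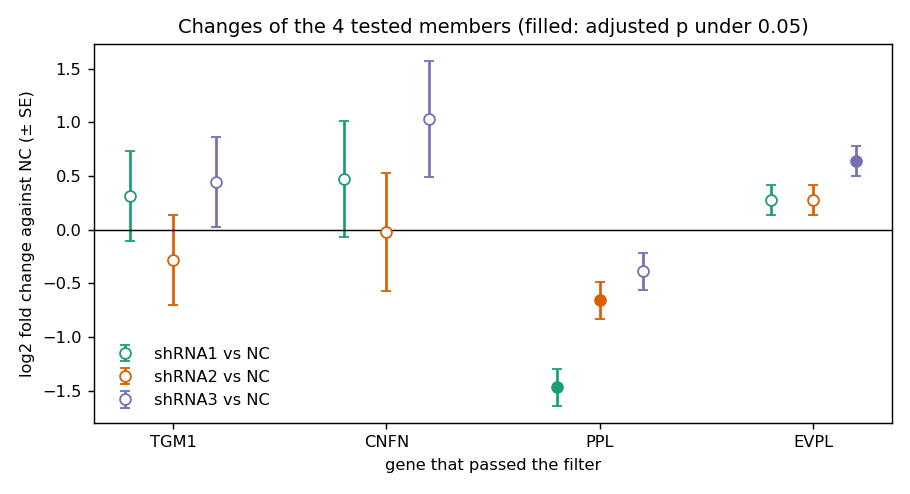
Log2 fold change against NC (y axis, bars are ± SE) of the 4 members that passed the filter (x axis) for each shRNA in colour, filled where edgeR's adjusted p is under 0.05. Filled points are PPL for shRNA1 and shRNA2, at -1.47 and -0.66, and EVPL for shRNA3, at 0.64.

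The other genes of cornification, listed by function with earlier results of these data known, moved in both directions. Of 48 further envelope genes, among them loricrin, filaggrin and the late cornified envelope family, 26 never exceeded 3 counts and 12 passed the filter. Called in the same direction for all 3 shRNAs against NC were 5 higher and 2 lower of these 12, beside 16.0% and 19.7% of all tested genes. The median log2 fold change of the 12 was 1.10, 0.45 and 0.94 for shRNA1, shRNA2 and shRNA3. PI3 (elafin, a protease inhibitor that transglutaminase crosslinks into the envelope) rose from 0.618 ± 0.0675 CPM (SD, n = 3) in NC to 12.6 ± 5.33, 7.37 ± 0.504 and 20.0 ± 2.9, with adjusted p-values from edgeR of 2.88e-06, 1.05e-05 and 1.41e-06. S100A11, a crosslinked calcium-binding protein, rose from 137 ± 5.7 CPM to 560.0 ± 30.4, 649 ± 18.2 and 664 ± 145. The other 3 that rose, named after their values were seen, were DSP (desmoplakin, the plakin of desmosomes), ANXA1 (annexin A1) and S100A10. CST6 (cystatin M, an inhibitor of cathepsins and legumain) fell from 11.2 ± 1.75 CPM to 0.84 ± 0.399, 0.512 ± 0.117 and 0.377 ± 0.0725. SCEL (sciellin) fell from 12.2 ± 2.76 CPM to 1.58 ± 0.499, 6.11 ± 1.6 and 1.73 ± 0.392.

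Of 25 genes of the skin barrier, covering lipids, proteases and their inhibitors, 20 passed the filter, and 4 were higher and 9 lower for all 3 shRNAs (16.0% and 19.7% of all tested genes). The median over these 20 was -1.59, -0.85 and -0.56 on the log2 scale for shRNA1, shRNA2 and shRNA3, and it was the same with genes whose libraries in a group were all at 0 set to their bound. CASP14, a protease of terminal differentiation, had 0 counts in every NC library and 82 to 123, 65 to 162 and 96 to 175 counts in the 3 shRNA groups, at least 35.4-fold, 42.3-fold and 61.8-fold higher against 3 counts per library. SPINK5, an inhibitor of kallikreins, rose from 0.601 ± 0.0429 CPM (SD, n = 3) in NC to 7.33 ± 2.86, 22.4 ± 1.78 and 18.1 ± 3.36. KLK5, a kallikrein that SPINK5 inhibits, fell from 1840 to 1947 counts in NC to 1 to 2, 18 to 24 and 0 to 6 counts. NIPAL4, a barrier protein also called ichthyin, fell from 94 to 115 counts to at most 6.

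Among keratins, 5 of 9 suprabasal ones passed the filter, and 2 were higher and 1 lower for all 3 shRNAs (16.0% and 19.7% of all tested genes). KRT13, the suprabasal keratin of oral lining epithelium, had 1 to 4 counts in NC and 7643 to 26333 in the shRNA libraries, and its partner KRT4 had 0 to 1 in NC and 8 to 107. KRT80 fell from 402 ± 76.7 CPM (SD, n = 3) to 258 ± 6.28, 233 ± 4.07 and 220.0 ± 41.9. Of the 3 basal keratins KRT14 rose (7.58 ± 1.74 CPM in NC against 55.5 ± 2.96, 24.5 ± 0.511 and 149 ± 109), KRT15 rose (18.2 ± 2.39 CPM against 47.6 ± 8.39, 49.8 ± 2.78 and 216 ± 129), and KRT5 fell from 1010 ± 42.4 CPM to 21.4 ± 6.71, 80.2 ± 2.47 and 74.9 ± 22.0. Of 5 keratins of injured or fast-growing epithelium, 2 rose for all 3 shRNAs and 0 fell for all 3 (16.0% and 19.7% of all tested genes). These 2 were KRT6A (92.3 ± 15.1 CPM in NC, 284 ± 146, 429 ± 4.83 and 211 ± 23.4) and KRT17 (312 ± 32.2 CPM in NC, 647 ± 59.8, 572 ± 21.4 and 749 ± 182). KRT6B was called lower for shRNA1 only (log2 fold change -0.91, adjusted p = 0.0394, edgeR). KRT16 was called higher for shRNA3 only (2.65, adjusted p = 8.77e-05, edgeR), and KRT6C for no shRNA.

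Among 28 regulators of keratinocyte differentiation 25 passed the filter, and 3 were higher and 5 lower for all 3 shRNAs, beside 16.0% and 19.7% of all tested genes. GRHL3, a Grainyhead-like factor of barrier formation, had 2 to 6 counts in NC and 15 to 37, 38 to 61 and 79 to 136 in the shRNA groups. PRDM1 (Blimp-1) rose from 3.93 ± 0.213 CPM (SD, n = 3) to 11.2 ± 3.14, 9.41 ± 1.38 and 16.6 ± 3.08. GRHL2, a related factor, fell from 699 to 725 counts in NC to at most 17, and EHF, an epithelial ETS factor, fell from 607 ± 45.9 CPM to 14.8 ± 3.45, 20.5 ± 2.28 and 14.3 ± 5.92. The AP-1 genes on the list, named because of the TGANTCA matches, were not called in a common direction. FOS, FOSL1 and JUNB were higher for shRNA3 (log2 fold change 1.12, 1.71 and 1.72, adjusted p = 0.00644, 0.00697 and 0.00552, edgeR), and JUN was lower for shRNA2 (-1.78, adjusted p = 0.0069). None of the 4 was called for shRNA1. Without shRNA3 libraries 1 and 2, shRNA3 has 1 library left, so only sizes are given. They were 0.27 for FOS, -0.09 for FOSL1 and -0.09 for JUNB, so their rise rests on those libraries. JUN was then -1.06. The 20 genes named from the lists by their size of change kept their direction for shRNA3 without those libraries. Their selection used the remaining library too, so this is no separate support. KRT14 and KRT15 then stood at 1.76 and 1.92 in place of 4.30 and 3.57. A call for all 3 shRNAs was required of these 20, and their highest adjusted p was 0.0256, that of KRT14 for shRNA2 (edgeR).

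**Figure D5:**
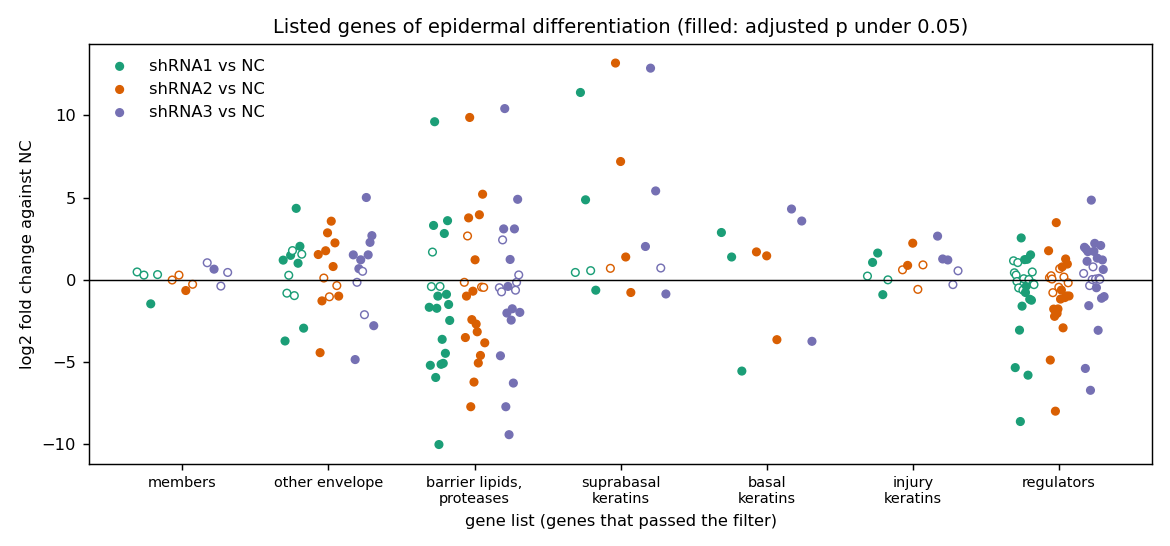
Log2 fold changes against NC (y axis) of the genes that passed the filter, by list (x axis), with the 4 members at the left, 1 colour per shRNA and filled points where edgeR's adjusted p is under 0.05. The members lie between -1.47 and 1.03, and each of the other lists except the injury keratins has genes called in opposite directions for all 3 shRNAs.

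The genes whose levels ran most like those of the 4 tested members over the 12 libraries were found by the smallest root-mean-square difference of centred log2(CPM + 1) among 13846 genes. For PPL they were PGLS, a pentose phosphate enzyme (0.159), and ARRB2, beta-arrestin 2 (0.182), where the median gene was at 0.786. For EVPL they were SF3A2, a splicing factor subunit (0.097), and PWWP3A (0.116). For CNFN they were UBL5 (0.223) and RPS21, a ribosomal protein (0.232), and for TGM1 LINC03000 (0.171) and LTB4R2, a leukotriene receptor (0.21). With a pseudocount of 0.1 the second gene for CNFN became TMEM256, and the other 7 neighbours were the same.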

How the data were processed

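The members and the gene lists were chosen with earlier results of these data known. RNA libraries were made with the NEBNext Ultra kit, per the labels' protocols. The authors deposited expected counts, which are estimated counts for each gene without scaling, and the submitters' processing notes name HISAT2, HTSeq 0.11.2 and GRCh38. The annotation used, and whether counting used strand, are not given in the sources used here. Of the values 13.8% are not whole, and all were rounded. Groups and replicate numbers came from the sample titles.

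Genes were kept by edgeR's filterByExpr over the 4 groups, with a minimum count of 10 and a minimum total of 15, and 17532 remained. They were scaled by TMM and tested (two-sided, robust quasi-likelihood F test of edgeR 4.0.16 in R 4.3.3) in a model of all 12 libraries. P-values were adjusted by Benjamini-Hochberg over all of these genes, and 0.05 was the threshold. The SE is the log2 fold change divided by the square root of F, and intervals use the 8 residual degrees of freedom. CPM values are TMM-scaled unless called CPM of the total. Positions and merged exon lengths are from GENCODE release 29 (GRCh38). A gene at 0 was given a limit of 3 counts.

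The genes named beside the members were, per list, the 2 rising and 2 falling genes with a mean of at least 1 CPM that were called the same way for all 3 shRNAs, ranked by their smallest change. Alternatives were DESeq2 size factors, library totals, no filter, a log2 change of at least 1, a replicate block, only the groups compared, each library left out, shRNA3 libraries 1 and 2 left out, and DESeq2's Wald test (1.42.0). Without shRNA3 libraries 1 and 2 that group holds 1 library, so p-values of that fit measure no spread within shRNA3.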

Additional observations from a re-analysis of the deposited data

Results flagged for a closer look

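The change of PPL against NC differed between shRNAs, which was tested as the difference between them with edgeR's quasi-likelihood test. It was larger for shRNA1 than for shRNA2, with a log2 difference of -0.81 (adjusted p = 0.0126, lower in 3 of 3 libraries), and larger for shRNA1 than for shRNA3, with a log2 difference of -1.08 (adjusted p = 0.0035, lower in 3 of 3 libraries). The first missed the threshold without shRNA2 library 1 or library 3 (adjusted p = 0.0544 and 0.0518, edgeR). The second missed it when the fit held only shRNA1 and shRNA3 (adjusted p = 0.117, edgeR).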

How the results depend on the processing

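The number of members called against NC was 1, 1 and 1 for shRNA1, shRNA2 and shRNA3 and 2 for their mean. With shRNA3 libraries 1 and 2 left out, 1 shRNA3 library remains, so only sizes are given. EVPL was then 0.30 for shRNA1 and 0.30 for shRNA2, in place of 0.28 each. A log2 change of at least 1 left 0 members called for shRNA2 (38.4% of all genes), shRNA3 (39.4%), the mean (39.9%) and shRNA1 against shRNA2 (5.88%), each from 1 or 2. With only the groups compared the number called was 2 for shRNA2 (79.2% of all genes) and 0 for shRNA1 against shRNA3 (0% of all genes). DESeq2's Wald test gave 2 for shRNA3 (57.4% of all genes), 2 for shRNA1 against shRNA3 (38.6%) and 1 for shRNA2 against shRNA3 (21.6%). Library totals gave 1 for the mean (57.7% of all genes). Leaving out each library in turn, the counts ranged from 1 to 2 for shRNA1, 1 to 3 for shRNA2, 1 to 4 for shRNA3, 1 to 2 for the mean, 0 to 1 for shRNA1 against shRNA2, 1 to 3 for shRNA1 against shRNA3 and 0 to 4 for shRNA2 against shRNA3. The highest of each of these except that for the mean and for shRNA1 against shRNA2 came without shRNA3 library 3. In that fit 5 members were tested, with SPRR1B let in only by its counts in shRNA3 libraries 1 and 2. Of all genes it called 73.1% for shRNA1, 70.2% for shRNA2 and 73.1% for shRNA3. It called 63.4% for shRNA1 against shRNA3 and 59.2% for shRNA2 against shRNA3. The cause was not tested. PPL kept its direction in every comparison and alternative run, and so did EVPL against NC.

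The replicate block changed no call among the members, and gave 378 genes in place of 1462 for shRNA2 against shRNA3. Libraries with the same number did not deviate together (mean correlation -0.0107 over 18 pairs, 0.00443 over 36 pairs with different numbers), so the numbers were not taken to pair the libraries.

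Signs changed for TGM1 and CNFN, where no value passed the test over all libraries, and for EVPL in shRNA1 against shRNA2 (-0.00), which ranged from -0.12 to 0.05 with 1 library left out. Without shRNA3 libraries 1 and 2, TGM1 was -0.31 for shRNA3 against NC, -0.08 for the mean, 0.63 for shRNA1 against shRNA3 and 0.04 for shRNA2 against shRNA3, and CNFN was -0.33, 0.81 and 0.33 for shRNA3 against NC, shRNA1 against shRNA3 and shRNA2 against shRNA3. With library totals TGM1 was -0.05 for the mean and 0.18 for shRNA1 against shRNA3. CNFN for shRNA2 against NC was 0.02 without the filter and 0.04 with the replicate block. With 1 library left out, TGM1 ranged from -0.03 to 0.72 for shRNA3 against NC and from -0.40 to 0.36 for shRNA1 against shRNA3, and CNFN from -0.32 to 0.18 for shRNA2 against NC. The cause was not tested.

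Over all genes, a log2 change of at least 1 left 6990 of 10525 for the mean. For shRNA1 against shRNA2 the 2158 genes became 1031 with that threshold, 1420 without the filter, 6251 with only the groups compared, 7031 without shRNA3 libraries 1 and 2 and 3464 with DESeq2's Wald test. For shRNA1 against shRNA3 the 5258 became 2971 with that threshold and 0 with only the groups compared. For shRNA2 against shRNA3 the 1462 became 974 with the threshold, 596 with library totals, 911 without the filter, 0 with only the groups compared and 3793 with DESeq2. Leaving out each library in turn, these 3 counts ranged from 559 to 7233, from 1788 to 11573 and from 0 to 10800. The highest each time came without shRNA3 library 3, and 0 came without any 1 shRNA2 library or shRNA3 library 2. Of the lists, the other envelope genes called for shRNA1 were 7 of 12 tested (beside 57.4% of all genes). They became 12 of 12 with only the groups compared (71.8%) and 14 of 14 without shRNA3 library 3 (73.1%). The regulators called for shRNA1 went from 13 of 25 (57.4% of all genes) to 20 of 26 without shRNA3 library 3 (73.1%). Of the 5 injury keratins, 2 were called for shRNA2 (53.0% of all genes), and 1 with a log2 change of at least 1 (38.4%). With only the groups compared 5 were called (79.2%), and without shRNA3 library 3 it was 4 (70.2%). Depth limits IVL and the SPRR genes, which stay near the limit of 3 counts.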
